A study of Mus musculus with 12 samples.

Results

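The genes Aqp8, Kcnma1, Kcnip1, Kcnd2, Ano4 and Actg2, which encode a water channel, 4 ion channel proteins and a contractile actin, were followed across oviducts with and without estrogen receptor alpha (ESR1). They are 6 of 1933 genes whose values could be traced on all 12 arrays, out of 18194 gene symbols on the array. The genes were picked by symbol with earlier results of these data known, and their rows were found through the expression differences between the same groups. For the 6 genes themselves the levels and differences are therefore descriptions and carry no test.

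Aquaporins are pores that let water cross a cell membrane along an osmotic gradient, and Aqp8 is the member also known to pass small molecules such as hydrogen peroxide and ammonia. Kcnma1 is the pore of the BK channel, a potassium channel opened by calcium and depolarization that limits the contraction of smooth muscle. Kcnd2 (Kv4.2) is the pore of a fast-inactivating A-type potassium channel, and Kcnip1 (KChIP1) is a calcium-binding subunit that changes the surface expression and gating of Kv4 pores. Ano4 belongs to the anoctamins, a family of calcium-activated chloride channels and lipid scramblases. Actg2 is the gamma-actin of enteric-type smooth muscle. In the oviduct, water and ion transport by the epithelium sets the luminal fluid, cilia and smooth muscle move gametes and embryos, and estrogen acts on these tissues through ESR1.

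There were 4 groups of 3 arrays each, and each array held oviductal RNA of a pool of 3 to 4 mice. PMSG-treated ESR1KO and PMSG-treated WT mice received 5 IU of pregnant mare serum gonadotropin (PMSG, which drives follicle growth and ovarian estrogen synthesis) at 23 days of age, and their oviducts were collected 48 h later. Untreated ESR1KO and WT mice were sampled at 23 days, so the treated mice were older by those 48 h, and PMSG and age cannot be told apart. ESR1KO mice lacked ESR1 in the whole body, on a C57BL/6 background, after Cre recombinase driven by Zp3, an oocyte gene, had deleted the floxed gene in the maternal germ line. The WT mice were siblings with 1 floxed and 1 deleted copy of ESR1, so they were not free of the deleted allele, and mice of both genotypes could carry the Cre transgene. Loss of ESR1 was lifelong and present in ovary and pituitary too. Arrays of a group held different mice.

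The values are log2 expression signals, on which a difference of 1 is a doubling. A signal under 4 is called near background here, which held for 41.5% to 42.3% of the signals on each array, and folds against such a group are uncertain. Esr1 itself averaged 10.43 ± 0.28 in PMSG-treated ESR1KO, 12.55 ± 0.31 in PMSG-treated WT, 11.20 ± 0.87 in ESR1KO and 12.97 ± 0.07 in WT (SD, n = 3 each). The ESR1KO arrays were lower than the WT arrays but far above background, and where the probes lie relative to the deleted exon is not given in the sources used here. ESR1KO replicate 2 had the highest Esr1 signal of its group, 12.13, and PMSG-treated WT replicate 3 stood furthest from its group over all rows, with a root-mean-square deviation of 0.534 against 0.302 and 0.351 for its group's other arrays. The oviduct label was checked in untreated ESR1KO, where 8 of 8 ciliated-cell markers, 3 of 4 secretory markers (Ovgp1, the oviductal glycoprotein, at 15.94) and 6 of 6 smooth muscle markers (Acta2 at 14.80) were at 4 or more. Of 7 ovarian markers, Foxl2 at 8.48 and Star at 5.30 were at 4 or more and the oocyte genes Gdf9 and Zp2 were near background. None of these ciliated, secretory, smooth muscle or ovarian markers could be traced in the other 9 arrays, so they were not compared between groups.

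The sequence just upstream of a gene's start is shown for Aqp8, Kcnma1 and Kcnip1, the genes whose level differed most between PMSG-treated WT and WT. Each run gives the 250 bases before a RefSeq start, in the direction of transcription, from GRCm38.p6: chr7:123462044-123462293 on the + strand for Aqp8, chr14:24004206-24004455 on the - strand for Kcnma1, and chr11:33843687-33843936 on the - strand for 1 of the 3 Kcnip1 starts. Capitals mark an estrogen response element half-site, GGTCA, at bases 235 to 231 before that Kcnip1 start.
Aqp8: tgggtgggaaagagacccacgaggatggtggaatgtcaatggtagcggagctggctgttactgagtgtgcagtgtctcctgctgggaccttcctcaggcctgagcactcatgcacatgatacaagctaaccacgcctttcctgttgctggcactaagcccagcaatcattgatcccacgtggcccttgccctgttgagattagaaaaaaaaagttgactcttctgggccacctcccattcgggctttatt
Kcnma1: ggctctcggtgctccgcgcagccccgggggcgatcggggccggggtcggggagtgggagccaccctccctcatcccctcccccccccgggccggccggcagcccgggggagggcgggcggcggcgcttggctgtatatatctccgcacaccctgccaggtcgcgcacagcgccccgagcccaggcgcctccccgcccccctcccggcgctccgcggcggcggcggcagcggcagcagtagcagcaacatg
Kcnip1: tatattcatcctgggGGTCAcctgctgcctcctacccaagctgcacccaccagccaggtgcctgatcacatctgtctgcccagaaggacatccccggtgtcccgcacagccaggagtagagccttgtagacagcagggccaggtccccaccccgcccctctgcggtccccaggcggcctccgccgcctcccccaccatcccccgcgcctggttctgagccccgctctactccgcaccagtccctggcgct
The windows searched ran from 250 bases before to 50 bases after a start. Aqp8, Kcnma1, Kcnip1, Kcnd2 and Ano4 had 7 windows in the RefSeq table, 5 of the 6 genes being matched by symbol. Actg2 had no window, so no motif, the CArG box included, was searched for it. The full estrogen response element, GGTCA and TGACC separated by 3 bases of any kind, was in 0 of the 7, as against 23 of 32851 windows of all genes (0.0700%). The half-site GGTCA, searched on both strands, was in the 1 Kcnip1 window above and in 40.5% of all windows. The CArG box, the site of serum response factor, was in 0 of the 7 and in 1.63% of all windows. A match is a description of the letters only, and nothing about receptor binding follows from its presence or absence.

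Aqp8 was the gene with the widest range of levels. Its signal was 3.28, 3.07 and 2.95 in PMSG-treated ESR1KO, against 8.48, 8.31 and 7.57 in PMSG-treated WT. Without PMSG it was 3.01, 2.93 and 2.90 in ESR1KO, against 4.28, 4.41 and 5.10 in WT. The ESR1KO arrays, treated or not, were thus all near background, untreated WT was just above it, and PMSG-treated WT stood alone and high. The mean was 32.5-fold lower in PMSG-treated ESR1KO oviducts than after PMSG in WT (log2 difference -5.02 ± 0.30, SE), and PMSG-treated WT exceeded WT 11.5-fold (3.52 ± 0.38). Between ESR1KO and WT the log2 difference was -1.65 ± 0.26, and between PMSG-treated ESR1KO and ESR1KO it was 0.15 ± 0.10 with overlapping arrays. The PMSG response thus differed by -3.37 ± 0.39 between the genotypes. Counting every signal under 4 as 4, the difference was -4.12 between the treated genotypes and -0.60 between the untreated genotypes, so the size of the untreated difference rests on signals near background. In this whole-organ RNA, fewer cells of a type and less RNA per cell cannot be told apart, for Aqp8 and for the genes below.

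**Figure D1:**
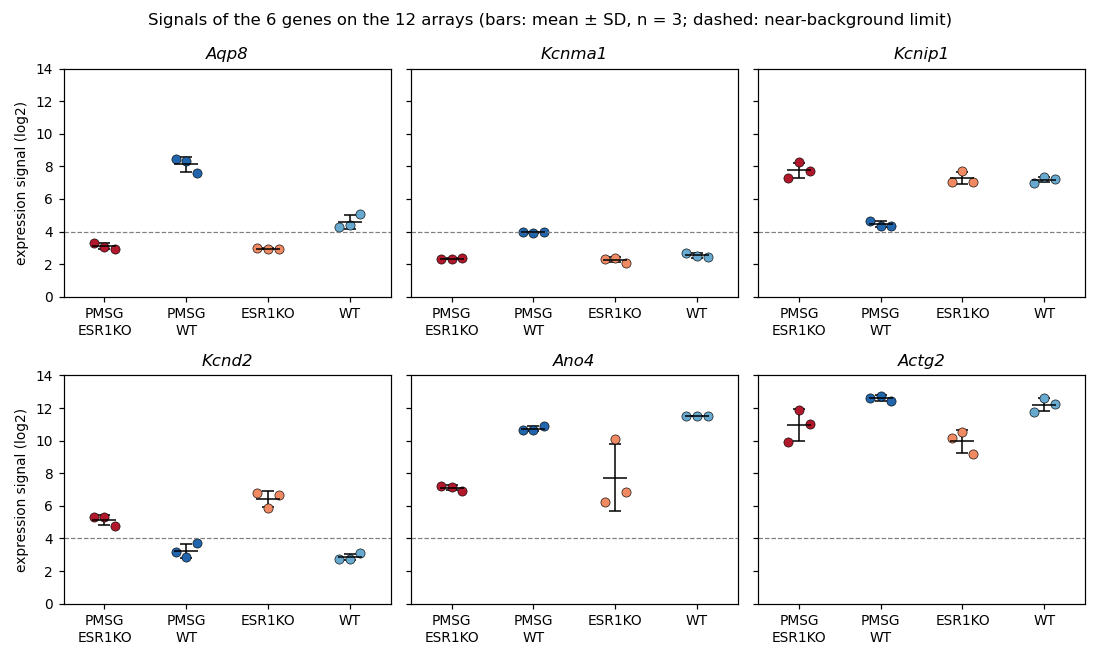
Log2 expression signal of each gene on each of the 12 arrays (points), with the mean and SD of the 3 arrays of a group (bars) and the near-background limit of 4 (dashed line). Aqp8 was above 7 in PMSG-treated WT alone, Kcnip1 was lowest in PMSG-treated WT, Ano4 and Actg2 were lower in both ESR1KO groups, and Kcnd2 was higher in both.

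Of 11 other aquaporins on the array, Aqp5, a water channel of secretory glands, was the one that could be traced. Aqp5 and the other relatives below were traced through the study's list of changed genes, from differences between the same groups. Their adjusted p-values are therefore not independent evidence of a change. Aqp5 had signals of 3.63, 3.50 and 3.32 in PMSG-treated ESR1KO and 7.68, 8.37 and 7.91 in PMSG-treated WT. The untreated arrays had 3.58, 3.51 and 3.47 in ESR1KO and 5.31, 6.00 and 6.50 in WT. As for Aqp8, the ESR1KO arrays were near background with and without PMSG, and the PMSG-treated WT arrays were the highest. Aqp5 fell by 4.51 ± 0.32 on the log2 scale in PMSG-treated ESR1KO relative to PMSG-treated WT (22.7-fold, limma, Benjamini-Hochberg adjusted p = 0.000123) and by 2.42 ± 0.29 in ESR1KO relative to WT (5.36-fold, adjusted p at most 0.00412). In PMSG-treated WT it rose by 2.05 ± 0.32 relative to WT (4.13-fold, adjusted p = 0.0492), a call that ended when any of the 9 fitted arrays other than PMSG-treated WT replicate 3 was left out (adjusted p from 0.0678 to 0.183). Over the 12 arrays the traced genes most like Aqp8 were Padi2, a peptidylarginine deiminase (Pearson r = 0.985), Larp1b (r = 0.984) and Gria1, an AMPA-type glutamate receptor (r = 0.981), of 1932 compared. The 12 arrays form 4 groups, so this and the other likenesses below mostly follow the group means, and they are descriptions.

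Kcnma1 had the same order of group means as Aqp8, but on signals near background. It read 2.34, 2.31 and 2.37 in PMSG-treated ESR1KO, against 3.99, 3.93 and 3.98 in PMSG-treated WT. Untreated ESR1KO arrays read 2.30, 2.40 and 2.10, against 2.71, 2.48 and 2.43 in WT. The PMSG-treated WT arrays lay apart from the other 9, with a spread between replicates far smaller than the gap, yet every group mean was under the near-background limit. The log2 difference was -1.63 ± 0.03 (3.08-fold) between PMSG-treated ESR1KO and PMSG-treated WT, and 1.42 ± 0.09 (2.68-fold) between PMSG-treated WT and WT. With signals under 4 counted as 4, both differences were 0.00, so a change of the transcript above background was not measured with this probe set. The other probe sets for Kcnma1 averaged 4.16, 6.25, 3.24 and 3.70 in untreated ESR1KO. They were not traced in the other groups. The most alike genes were Pak3, a kinase (r = 0.981), Col25a1, a collagen (r = 0.980), and Klk1b1, a kallikrein (r = 0.980). Klk1b1 averaged 2.04 in PMSG-treated ESR1KO, 8.01 in PMSG-treated WT, 2.04 in ESR1KO and 2.01 in WT.

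Of 6 further BK channel subunits on the array, Kcnmb1 and Kcnmb4 were traced. Kcnmb1, the beta-1 subunit that raises the calcium sensitivity of BK channels in smooth muscle, averaged 7.54 ± 0.49 in PMSG-treated ESR1KO, against 8.99 ± 0.65 in PMSG-treated WT, and 7.59 ± 0.47 in ESR1KO and 9.05 ± 0.44 in WT. The difference between the treated genotypes, -1.45 ± 0.38, did not pass the test (adjusted p = 0.0561) but passed it without PMSG-treated WT replicate 3 (-1.78, adjusted p = 0.0113) or when the rows tested were those with a mean signal of at least 4 (adjusted p = 0.0319). The Kcnmb1 difference between ESR1KO and WT, -1.46 ± 0.38, did not pass the test (adjusted p at most 0.166), nor did it under any alternative. Kcnmb4, the beta-4 subunit best known from neurons, fell by 1.67 ± 0.24 in PMSG-treated ESR1KO, to 6.33 ± 0.26 against 8.00 ± 0.39 in PMSG-treated WT (3.18-fold, adjusted p = 0.00428). It also fell by 1.57 ± 0.27 in ESR1KO relative to WT (adjusted p at most 0.0209). That second call ended without ESR1KO replicate 1 or 2, or WT replicate 2 or 3 (adjusted p from 0.0631 to 0.131). Between PMSG-treated WT and WT the log2 difference was -0.06 ± 0.38 for Kcnmb1 and -0.11 ± 0.24 for Kcnmb4, and neither passed the test.

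Kcnip1 ran the opposite way to Aqp8 and Kcnma1. It read 7.30, 8.25 and 7.70 in PMSG-treated ESR1KO, against 4.67, 4.35 and 4.32 in PMSG-treated WT. Without PMSG it read 7.07, 7.74 and 7.06 in ESR1KO, against 7.00, 7.34 and 7.22 in WT. The untreated genotypes overlapped, the PMSG-treated WT arrays were the lowest by a wide gap, and the PMSG-treated ESR1KO arrays stayed among the untreated ones or above them. The log2 difference was 3.30 ± 0.30 (9.85-fold) between PMSG-treated ESR1KO and PMSG-treated WT, and -2.74 ± 0.15 (6.67-fold) between PMSG-treated WT and WT. ESR1KO minus WT was 0.10 ± 0.25, and -0.12 without ESR1KO replicate 2. PMSG-treated ESR1KO minus ESR1KO was 0.46 ± 0.36. All group means were above 4, so these values did not depend on the near-background limit. The other probe sets for Kcnip1 averaged 6.30, 7.92 and 1.92 in untreated ESR1KO and were not traced in the other groups. The most alike genes were Epdr1 (r = 0.960), Angptl1 (r = 0.941) and Egflam (r = 0.938), the last 2 encoding secreted proteins.

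Kcnd2, the pore that Kcnip1 can bind, did not follow the Kcnip1 pattern. It read 5.34, 5.30 and 4.78 in PMSG-treated ESR1KO, against 3.15, 2.87 and 3.70 in PMSG-treated WT. In untreated oviducts it read 6.78, 5.88 and 6.64 in ESR1KO, against 2.74, 2.77 and 3.10 in WT. All 6 arrays of WT genotype were near background and all 6 arrays of ESR1KO genotype above it, with the untreated ESR1KO arrays highest. The log2 difference was 3.56 ± 0.30 (11.8-fold) between ESR1KO and WT, and 1.90 ± 0.30 (3.73-fold) between PMSG-treated ESR1KO and PMSG-treated WT. With signals under 4 counted as 4 these were 2.43 and 1.14. PMSG-treated ESR1KO minus ESR1KO was -1.29 ± 0.33 with no overlap, and PMSG-treated WT minus WT was 0.37 ± 0.27 with overlap. Kcnd2 thus held its genotype difference before PMSG, whereas Kcnip1 differed between the genotypes after PMSG, and none of the other 7 members of the Kv4 complex on the array could be traced. The other probe sets for Kcnd2 averaged 4.72, 7.00 and 2.34 in untreated ESR1KO and were not traced in the other groups.

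Kcnd2 was most like Nefl, a neurofilament subunit (r = 0.932), Upk3bl (r = 0.931) and Dcbld1 (r = 0.929). Some traced cell type markers were also higher in ESR1KO oviducts, and others, given with Ano4 below, were lower. Lrrn4, 1 of 4 mesothelial markers and the one traced, averaged 10.59 ± 0.07 in PMSG-treated ESR1KO, 9.20 ± 0.55 in PMSG-treated WT, 10.26 ± 0.09 in ESR1KO and 8.87 ± 0.41 in WT. Pdgfra, a stromal marker, averaged 13.76 ± 0.10 in PMSG-treated ESR1KO, 12.27 ± 0.24 in PMSG-treated WT, 13.21 ± 0.41 in ESR1KO and 12.09 ± 0.24 in WT. Lum, the other traced stromal marker, went the opposite way, with 9.61 in PMSG-treated ESR1KO, 11.71 in PMSG-treated WT, 9.54 in ESR1KO and 11.98 in WT. Csf1r, a macrophage marker, averaged 10.11 ± 0.25 in PMSG-treated ESR1KO, 8.49 ± 0.50 in PMSG-treated WT, 9.51 ± 0.25 in ESR1KO and 8.90 ± 0.20 in WT. The strongest Csf1r probe set was another, at 11.33 ± 0.41 in untreated ESR1KO. The part of mesothelium, stroma or macrophages in the Kcnd2 difference was not tested.

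**Figure D2:**
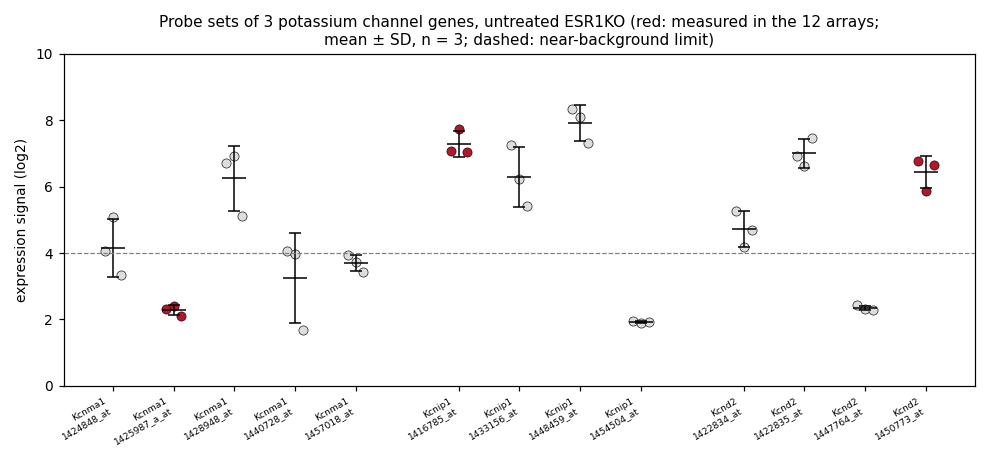
Log2 signal of each probe set of Kcnma1, Kcnip1 and Kcnd2 on the 3 untreated ESR1KO arrays (points), with mean and SD, the traced probe sets in red and the near-background limit of 4 dashed. The traced Kcnma1 probe set, at 2.27, was near background and the traced sets of Kcnip1 (7.29) and Kcnd2 (6.43) were not. Probe sets differ in affinity, so their levels are not set against each other.

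Ano4 was strongly expressed in WT oviducts and much weaker in ESR1KO oviducts. It read 7.24, 7.16 and 6.94 in PMSG-treated ESR1KO, against 10.64, 10.68 and 10.91 in PMSG-treated WT. Untreated, it read 6.23, 10.09 and 6.86 in ESR1KO, against 11.49, 11.51 and 11.51 in WT. The genotypes did not overlap in either state, but ESR1KO replicate 2 lay close to WT, and that was also the ESR1KO array with the highest Esr1 signal. The log2 difference was -3.63 ± 0.12 (12.4-fold) between PMSG-treated ESR1KO and PMSG-treated WT, and -3.77 ± 1.20 (13.7-fold) between ESR1KO and WT. Without ESR1KO replicate 2, ESR1KO minus WT was -4.96 (31.0-fold). PMSG-treated WT minus WT was -0.76 ± 0.08 (1.69-fold) with no overlap, and PMSG-treated ESR1KO minus ESR1KO was -0.62 ± 1.20, or 0.57 without ESR1KO replicate 2, so its direction rested on that array.

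The genes most like Ano4 were Fn1, the matrix protein fibronectin (r = 0.989), Mlc1 (r = 0.973) and Emb, an adhesion protein (r = 0.967). Fn1 averaged 10.06 in PMSG-treated ESR1KO, 12.76 in PMSG-treated WT, 10.50 in ESR1KO and 13.24 in WT. Kit, 1 of 2 markers of interstitial cells of Cajal and the one traced, averaged 4.87 ± 0.68 in PMSG-treated ESR1KO, 7.12 ± 0.37 in PMSG-treated WT, 5.89 ± 0.64 in ESR1KO and 7.51 ± 0.40 in WT. This was not the strongest Kit probe set, which averaged 9.40 ± 0.63 in untreated ESR1KO. Pecam1, an endothelial marker, averaged 6.46 ± 0.46 in PMSG-treated ESR1KO, 7.72 ± 0.45 in PMSG-treated WT, 4.91 ± 1.25 in ESR1KO and 8.15 ± 0.35 in WT, with 6.35 on ESR1KO replicate 2. Kit and Pecam1, 1 traced row each for the muscle pacemaker and the vessel lining, had the same direction as Ano4, and Kdr below differed by less. Lum, also a stromal marker but opposite to Pdgfra, averaged 9.61 ± 0.27 in PMSG-treated ESR1KO, 11.71 ± 0.51 in PMSG-treated WT, 9.54 ± 0.90 in ESR1KO and 11.98 ± 0.51 in WT. Kdr, a further endothelial marker, averaged 7.43 ± 0.14 in PMSG-treated ESR1KO, 7.66 ± 0.25 in PMSG-treated WT, 6.82 ± 0.05 in ESR1KO and 7.32 ± 0.30 in WT. Traced were 2 of 5 stromal, 2 of 4 endothelial and 1 of 4 leukocyte markers. Whether these cell types carry the Ano4 difference was not tested.

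Of 6 other anoctamins on the array, Ano8 and Ano9 were traced and neither passed the test between genotypes. Ano9, a scramblase of the same family, averaged 5.48 ± 0.28 in PMSG-treated ESR1KO, against a near-background 3.59 ± 1.16 in PMSG-treated WT (1.89 ± 0.49, adjusted p = 0.0552). Its difference passed without PMSG-treated WT replicate 1 (2.30, adjusted p = 0.0343) or without PMSG-treated WT replicate 3 (1.23, adjusted p = 0.0126), the array with the lowest Ano9 signal, 2.27, and also among rows with a mean signal of at least 4 (adjusted p = 0.0298). Ano8 was near background in every group, at 1.66 to 1.77.

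Actg2 was abundant in every group and lower in ESR1KO oviducts. It read 9.94, 11.89 and 11.04 in PMSG-treated ESR1KO, against 12.61, 12.77 and 12.42 in PMSG-treated WT. Untreated, it read 10.14, 10.52 and 9.20 in ESR1KO, against 11.78, 12.59 and 12.27 in WT. The genotypes did not overlap in either state, though the spread between ESR1KO arrays was wide. The log2 difference was -2.26 ± 0.46 (4.79-fold) between ESR1KO and WT, and -1.64 ± 0.57 (3.13-fold) between PMSG-treated ESR1KO and PMSG-treated WT. The treated difference ranged from -2.11 to -1.14 when 1 array was left out. PMSG-treated WT minus WT was 0.39 ± 0.26 and PMSG-treated ESR1KO minus ESR1KO was 1.00 ± 0.69, both with overlapping arrays. The PMSG response differed by 0.62 ± 0.73 between the genotypes, less than its SE. The most alike genes were Cxcl14, a chemokine (r = 0.962), Vegfd, a lymphatic growth factor (r = 0.957), and Prkar1b (r = 0.939).

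None of the 6 smooth muscle markers could be traced outside untreated ESR1KO, so the amount of muscle in the 4 groups, and its part in the Actg2 difference, was not tested. Tracing needed an entry in the held part of the study's list of changed genes. Acta2, Myh11, Des, Cnn1 and Lmod1 had no entry there, and Tagln sorts after the end of that part. On the untreated ESR1KO arrays, replicates 1, 2 and 3 read 14.97, 14.96 and 14.47 for Acta2, the vascular-type smooth muscle actin, and 13.58, 13.57 and 12.81 for Myh11, smooth muscle myosin. Replicate 3, the lowest of the group for Actg2, was the lowest for both. Of 18 other contractile smooth muscle genes on the array, Pln and Itga8 were traced, and of 5 other actin isoforms none was.

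Pln, phospholamban, the inhibitor of the calcium pump of the sarcoplasmic reticulum, was lower in ESR1KO as Actg2 was. It read 2.88, 2.72 and 2.81 in PMSG-treated ESR1KO and 5.70, 5.45 and 4.53 in PMSG-treated WT. It read 2.68, 4.22 and 2.55 in ESR1KO and 6.19, 7.29 and 6.11 in WT, with ESR1KO replicate 2 the nearest to WT. It fell by 3.38 ± 0.48 in ESR1KO relative to WT (10.4-fold, adjusted p at most 0.00827) and by 2.43 ± 0.38 in PMSG-treated ESR1KO relative to PMSG-treated WT (5.38-fold, adjusted p = 0.00650). The Pln means of ESR1KO (3.15) and PMSG-treated ESR1KO (2.80) were near background, so both folds are uncertain. The untreated Pln call ended in an unmoderated model (adjusted p = 0.0535) and with the 6 compared arrays alone (adjusted p = 0.0739). Itga8, the alpha-8 integrin of mesenchymal and smooth muscle cells, rose by 2.70 ± 0.30 in PMSG-treated WT, to 8.31 ± 0.55 against 5.61 ± 0.29 in WT (6.50-fold, adjusted p = 0.0105). It fell 2.82-fold in PMSG-treated ESR1KO, to 6.81 ± 0.26 against 8.31 ± 0.55 in PMSG-treated WT (adjusted p = 0.0183). The first Itga8 call ended without WT replicate 2 or 3 (adjusted p from 0.0520 to 0.0576), and the second without PMSG-treated ESR1KO replicate 2 or 3 or PMSG-treated WT replicate 1 or 2 (adjusted p from 0.0515 to 0.0858).

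**Figure D3:**
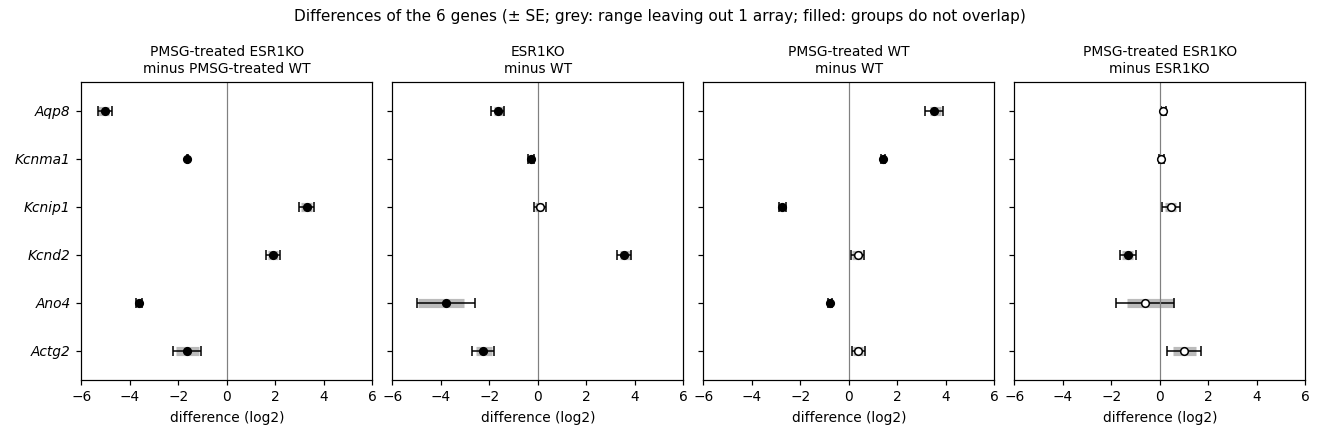
Log2 differences of the 6 genes in 4 comparisons (points, with SE bars), the range of the difference when 1 array is left out (grey), and filled points where the arrays of the compared groups do not overlap. Aqp8, Kcnma1 and Kcnip1 differed with PMSG in WT (3.52, 1.42 and -2.74) but by 0.46 or less in ESR1KO, with the Kcnma1 signals near background. Aqp8, Kcnd2, Ano4 and Actg2 lay apart between the untreated genotypes (-1.65, 3.56, -3.77 and -2.26), as did Kcnma1 by -0.27, and Ano4 also lay apart with PMSG in WT (-0.76).

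The 9 gene lists around the 6 genes held 159 other genes on the array, of which 86 had a probe set at 4 or more in untreated ESR1KO. Of the 159, 22 could be traced, and these were traceable because the study had listed them as changed. Their counts and adjusted p-values are therefore not independent evidence of a change. The rest were either not listed as changed or outside the part of that list that was held. Between PMSG-treated ESR1KO and PMSG-treated WT, 6 of the 22 rose and 10 fell (a change of 2-fold or more with an adjusted p below 0.05), where 2.76% of all 45101 rows were higher and 1.72% lower. Between PMSG-treated WT and WT, 3 of the 22 rose (Aqp5, Itga8 and Clca3a1) and 0 fell, where 0.177% of all rows were higher and 0.0732% lower. Between ESR1KO and WT, 3 rose and 5 fell, against 9.06% and 9.01% of the 1997 traced rows. The all-row shares above include rows not listed as changed, so the higher shares among the 22 follow in part from how they were traced. The median log2 difference of the 22 was -1.07 between the treated genotypes and -0.26 between the untreated ones, beside 0.36 and 0.15 over all traced rows. None of the 22 passed the test between PMSG-treated ESR1KO and ESR1KO, where their median was 0.10.

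Among the other potassium channels, 11 of 70 were traced, again as genes listed as changed. Between the treated genotypes 4 of the 11 rose and 5 fell, beside 2.76% and 1.72% of all rows, which is not a like baseline. Kcna1 (Kv1.1), a delayed-rectifier pore, read 6.66, 6.49 and 6.67 in PMSG-treated ESR1KO, against 3.77, 3.05 and 2.62 in PMSG-treated WT (3.46 ± 0.34, adjusted p = 0.000578). Kcng4, a silent modifier subunit of Kv2 pores, averaged 6.17 ± 0.62 in PMSG-treated ESR1KO, against 3.49 ± 0.97 in PMSG-treated WT (2.67 ± 0.47, adjusted p = 0.0108), a call that ended without PMSG-treated ESR1KO replicate 3 (adjusted p = 0.0538). In the opposite direction, Kcnf1, also a silent Kv2 modifier, averaged 3.09 ± 0.06 in PMSG-treated ESR1KO, against 6.92 ± 0.82 in PMSG-treated WT (-3.83 ± 0.37, 14.2-fold, adjusted p = 0.000561). The lower means of Kcna1, Kcng4 and Kcnf1 were near background, so the sizes of these differences are uncertain. Kcnk2 (TREK-1), a stretch-sensitive leak channel, averaged 5.54 ± 0.14 in PMSG-treated ESR1KO, against 8.24 ± 0.84 in PMSG-treated WT (-2.70 ± 0.37, adjusted p = 0.00314).

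Between the untreated genotypes, Kcne1, a small subunit of the KCNQ1 channel, averaged 5.38 ± 0.89 in ESR1KO and was near background in WT at 2.17 ± 0.01 (3.21 ± 0.63, adjusted p at most 0.0418). Kcnc2 (Kv3.2), a fast delayed rectifier, averaged 8.13 ± 0.54 in ESR1KO and 5.24 ± 0.22 in WT (2.89 ± 0.46, 7.41-fold, adjusted p at most 0.0147). Kcnf1 was near background in ESR1KO at 3.52 ± 0.49 and averaged 6.07 ± 0.24 in WT (-2.55 ± 0.38, adjusted p at most 0.0102). Kcnj8 (Kir6.1), the pore of the ATP-sensitive channel of vascular and other smooth muscle, averaged 7.68 ± 0.43 in ESR1KO and 9.46 ± 0.16 in WT (-1.78 ± 0.30, adjusted p at most 0.0184). Each of these 4 calls ended when single arrays were left out, which happened for 9 arrays in Kcne1 (those other than PMSG-treated ESR1KO replicates 1 and 3 and PMSG-treated WT replicate 3, adjusted p up to 0.180), 4 in Kcnc2 (ESR1KO replicate 3 and each WT array, up to 0.0753), 4 in Kcnf1 (ESR1KO replicates 1 and 3, WT replicates 2 and 3, up to 0.0673) and 5 in Kcnj8 (ESR1KO replicates 1 and 3 and each WT array, up to 0.104).

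**Figure D4:**
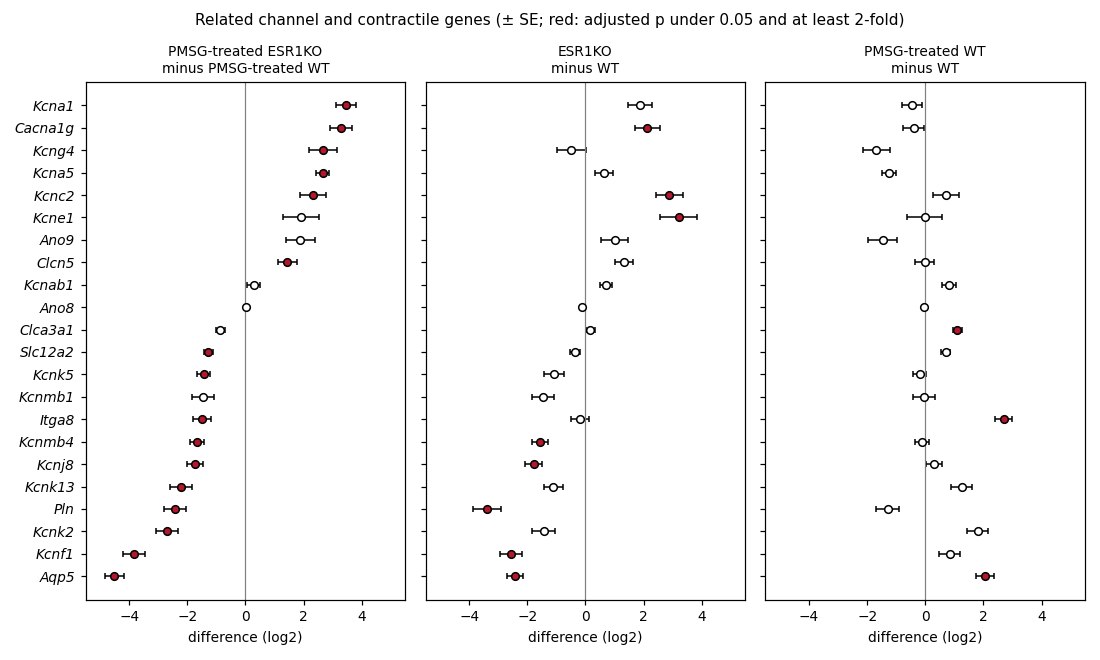
Log2 differences (points, with SE bars) of the 22 traced relatives in 3 comparisons, red where the change was 2-fold or more with an adjusted p below 0.05, ordered by the difference between PMSG-treated ESR1KO and PMSG-treated WT. Aqp5 (-4.51) and Kcnf1 (-3.83) lie at the low end and Kcna1 (3.46) and Cacna1g (3.29) at the high end.

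Of the calcium channels of smooth muscle, 1 of 15 was traced. Cacna1g (Cav3.1), a T-type channel that opens near the resting potential, averaged 7.78 ± 0.41 in PMSG-treated ESR1KO, against 4.49 ± 0.71 in PMSG-treated WT (3.29 ± 0.37, 9.75-fold, adjusted p = 0.00134). It averaged 7.01 ± 0.75 in ESR1KO and 4.89 ± 0.28 in WT (2.12 ± 0.43, adjusted p at most 0.0478), and that call ended when any of the 12 arrays was left out, save PMSG-treated WT replicates 2 and 3 and ESR1KO replicate 2 (adjusted p from 0.0672 to 0.213). The T-type channel was thus higher in ESR1KO oviducts in the comparison after PMSG. Actg2, which carries no test here, and Pln, near background in PMSG-treated ESR1KO, were lower in it. A link between these genes was not tested.

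Of 21 epithelial chloride and sodium channels and transporters, 3 were traced. Slc12a2 (NKCC1), which loads chloride into secretory cells across the basolateral membrane, averaged 12.20 ± 0.09 in PMSG-treated ESR1KO, against 13.48 ± 0.33 in PMSG-treated WT (-1.28 ± 0.16, 2.43-fold, adjusted p = 0.00201). Between ESR1KO and WT its difference was -0.35 ± 0.18 and did not pass the test. Clcn5, an endosomal chloride-proton exchanger, averaged 8.32 ± 0.23 in PMSG-treated ESR1KO, against 6.88 ± 0.66 in PMSG-treated WT (1.44 ± 0.32, adjusted p = 0.0284), a call that ended when any PMSG-treated ESR1KO array, PMSG-treated WT replicate 1 or 2, or WT replicate 1 was left out (adjusted p from 0.0524 to 0.102). Clca3a1, a calcium-activated chloride channel regulator, averaged 4.59 ± 0.08 in PMSG-treated WT, against 3.49 ± 0.15 in WT (1.10 ± 0.16, adjusted p = 0.0418). Its WT mean was near background, and it was not tested among rows with a mean signal of at least 4. The Clca3a1 call ended when any of the 9 fitted arrays other than PMSG-treated WT replicate 3 was left out (adjusted p from 0.0654 to 0.193). Between the treated genotypes the water channel Aqp5 and the chloride loader Slc12a2 thus fell, and Clcn5 rose.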

How the data were processed

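Oviductal RNA was hybridised to 12 Affymetrix Mouse Genome arrays. The deposited log2 signals were made by the authors in Partek 6.6 with GCRMA background correction, quantile normalization and median polish, and carry no detection calls. Probe set names of the table fit the untreated ESR1KO columns, while the remaining 9 columns have a common but different order (column correlations of 0.985 to 0.993 within ESR1KO, and -0.146 to -0.123 with the rest). Of the 2427 entries in the study's supplementary list of changed genes, 1997 were held. The held part stopped at Slc27a2 in alphabetical order, so 430 later entries were not held and genes sorting later could not be traced. A gene not traced was therefore either not listed as changed or outside the held part. The list served only as a key. Its folds found each row in the 9 columns, and the implied ESR1KO level with the p-values found the ESR1KO row, so traced genes have those folds by construction. Matches lay within 8.76e-05 (log2) for all 1997. The probe set symbol, unused in matching, was the same for 1896 of 1903, and 2 of 1997 decoys passed. More than 1 ESR1KO candidate was seen for 109 entries, Aqp8 among them, and the closest was taken.

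The PMSG-treated genotypes, and WT with and without PMSG, were compared over 45101 rows of 9 arrays by limma 3.58.1 in R 4.3.3 (eBayes with a variance trend, Benjamini-Hochberg). Comparisons with untreated ESR1KO used the 1997 traced rows of 12 arrays, with that fit's prior (2.87 degrees of freedom) and p adjusted as if 45101 rows were tested, so that it can be too high but not too low. Calls needed a 2-fold change and an adjusted p below 0.05. On data simulated for the treated genotypes over 45101 rows, 44, 41, 46 and 50 of 50 rows changed by 1.5, 2, 3 and 4 (log2) were recovered, and 3 unchanged rows were called. The 6 genes and all lists were chosen with earlier results of these data known. Named relatives were every traced aquaporin, anoctamin, BK or Kv4 subunit and actin, and up to 4 called genes per other list and comparison with the largest differences. For each of the 6 genes, the 3 traced genes with the highest Pearson r were named, and cell type markers were named as such. The 932 probe sets with several symbols and 9211 with none were not named. Alternatives were no variance trend, an unmoderated model, a mean signal of at least 4, repeated quantile normalization, a replicate block, calls at any fold, the 6 compared arrays alone and each array left out. Tables were made in Python 3.11.15.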

Additional observations from a re-analysis of the deposited data

Results flagged for a closer look

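In 2 traced relatives every PMSG-treated ESR1KO array was above every ESR1KO array while every PMSG-treated WT array was below every WT array, and this difference in direction was not tested. Kcng4 read 5.48, 6.65 and 6.38 in PMSG-treated ESR1KO, against 5.34, 4.71 and 4.01 in ESR1KO, and 2.66, 4.56 and 3.26 in PMSG-treated WT, against 5.21, 5.20 and 5.11 in WT. The PMSG differences were 1.48 in ESR1KO and -1.68 in WT, which are 3.16 apart on the log2 scale. Ano8 read 1.76, 1.78 and 1.71 in PMSG-treated ESR1KO, against 1.63, 1.66 and 1.68 in ESR1KO, and 1.74, 1.71 and 1.72 in PMSG-treated WT, against 1.75, 1.80 and 1.75 in WT. Its PMSG differences were 0.13 apart, with all signals near background.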

How the results depend on the processing

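Counts of called rows moved with the processing. Between the PMSG-treated genotypes there were 2022 calls, and 1255 in an unmoderated model, 1313 with the 6 compared arrays alone, 3065 with no fold minimum and 1248 to 2422 with 1 array left out (lowest without PMSG-treated ESR1KO replicate 3). For PMSG-treated WT versus WT there were 113 calls, and 19 unmoderated, 179 with a mean signal of at least 4, 36 with 6 arrays and 41 to 346 with 1 array left out (highest without PMSG-treated WT replicate 3). For ESR1KO versus WT there were 361, and 138 unmoderated, 143 with 6 arrays and 101 to 502 with 1 array left out. For PMSG-treated ESR1KO versus ESR1KO there were 2, and 0 with no variance trend, unmoderated, with a mean signal of at least 4 or with 6 arrays, and 0 to 6 with 1 array left out. With the replicate number as a block the counts were 1926, 46, 324 and 2, in the order given here. Whether the numbers pair the arrays was not settled. Of 18 same-number correlations of deviations, 8 were over 0.1 (range -0.12 to 0.36), and arrays with different numbers were not compared. Of the relatives' calls, 12 of 16 between the treated genotypes, 0 of 3 between PMSG-treated WT and WT and 1 of 8 (Aqp5) between the untreated genotypes held under every alternative other than dropping the fold minimum. Calls were gained under at least 1 alternative for Kcnmb1, Kcne1 and Ano9 between the treated genotypes, for Kcna5, Kcnf1 and Kcnk2 between PMSG-treated WT and WT, and for Kcna1, Kcnk2 and Clcn5 between the untreated genotypes. Among values of the 6 genes, 215 leave-one-out results moved by less than the spread between replicates and 1 by more, the Ano4 difference in PMSG response (0.14, and 1.32 without ESR1KO replicate 2). The direction of 4 of these values changed when 1 array was left out: Ano4 in PMSG-treated ESR1KO minus ESR1KO (-0.62, and 0.57 without ESR1KO replicate 2) and in the difference in PMSG response (-0.60 without ESR1KO replicate 1), Kcnip1 in ESR1KO minus WT (0.10, and -0.12 without ESR1KO replicate 2) and Kcnma1 in PMSG-treated ESR1KO minus ESR1KO (0.07, and as low as -0.01). Counting signals under 4 as 4, chosen after seeing the data, moved 10 of 30 values, all of Aqp8, Kcnma1 and Kcnd2. The causes were not tested. Array number, weak signals and genes not traced limit the precision.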
